A study of Mus musculus with 2 samples.

Results

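The iron genes of the newborn mouse liver comprised 10 genes, taken by symbol from a list of names, of 43346 Ensembl genes in the deposited tables. They were the plasma iron carrier transferrin (Trf), the transferrin receptors Tfrc and Tfr2, the hepcidin genes Hamp and Hamp2, the ferritin chains Fth1 and Ftl1, the iron exporter ferroportin (Slc40a1), the iron importer DMT1 (Slc11a2) and the ferroxidase ceruloplasmin (Cp). RNA came from 2 pups of the inbred B6NCrl strain on postnatal day 0, both from 1 pregnancy, with 1 whole liver in each library. The pups carried no labelled allele or treatment, and their sex was not recorded in the labels. They form 1 group of 2 biological replicates, so the data hold levels and the spread between littermates and no contrast between conditions. Each library was made from 10 ng of RNA, kept above 200 nt in size, and gave 42124582 expected counts for pup 1 and 41443673 for pup 2.

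Iron travels in plasma bound to transferrin and enters most cells through Tfrc, the receptor that red cell precursors carry in abundance. Inside the cell it crosses the endosome membrane through DMT1, is stored in shells built of heavy and light ferritin chains, and leaves through ferroportin, helped by ferroxidases. Hepatocytes sense iron through Tfr2 and its partners and answer with hepcidin, a peptide hormone that closes ferroportin. Iron regulatory proteins bind short hairpins, called iron-responsive elements, in the untranslated ends of some of these messages. A hairpin before the coding part blocks translation when iron is scarce, and hairpins after it protect the message from decay.

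The hairpins are shown first because they are the sequence feature through which these regulatory proteins act. The letters searched were a C, any 5 bases (NNNNN) and then CAGTGN, read on the transcript strand alone, in GENCODE M21 transcripts of the members. A hairpin was called paired when the 5 bases before the CAGTGN loop could pair with the 5 bases after it, allowing G with T; the pairing condition was added after the matches were seen. Below, capitals mark the bulged C and the loop, and the lower case stretches are the arms.
Fth1, chr19:9982738-9982754, plus strand: CttcaaCAGTGCttgaa
Ftl1, chr7:45459785-45459801, minus strand: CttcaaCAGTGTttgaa
Slc40a1, chr1:45925471-45925487, minus strand: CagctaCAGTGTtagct
Tfrc, chr16:32631225-32631241, plus strand: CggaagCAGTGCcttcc
Tfrc, chr16:32631604-32631620, plus strand: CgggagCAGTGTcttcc
Tfrc, chr16:32631669-32631685, plus strand: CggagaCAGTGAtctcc
Tfrc, chr16:32631716-32631732, plus strand: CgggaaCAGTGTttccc
Slc11a2, chr15:100395159-100395175, minus strand: CagagcCAGTGTgtttc

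The elements of Fth1, Ftl1 and Slc40a1 lay in the 5′ untranslated part, at 93, 84 and 96 nt from the transcript start. The 4 paired elements of Tfrc lay in the 3′ untranslated part of Tfrc-201, where a further match had only 2 of 5 arm positions able to pair. The Slc11a2 match lay in the 3′ untranslated part of the transcript Slc11a2-205 and had 4 of 5 positions able to pair, so it missed the paired call. No paired element was found in the untranslated parts of Trf, Tfr2, Hamp, Hamp2 or Cp. The bare letters were common, in 8.31% of coding transcripts with a 5′ untranslated part and in 28.1% of those with a 3′ part. With paired arms the shares were 0.119% and 0.451%, or 31 of 20916 genes at the 5′ end and 129 of 21045 at the 3′ end. Tfrc was the 1 gene in the annotation with 2 or more paired elements in a 3′ untranslated part. A match of letters is a description of sequence and does not show that a protein binds there.

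**Figure D1:**
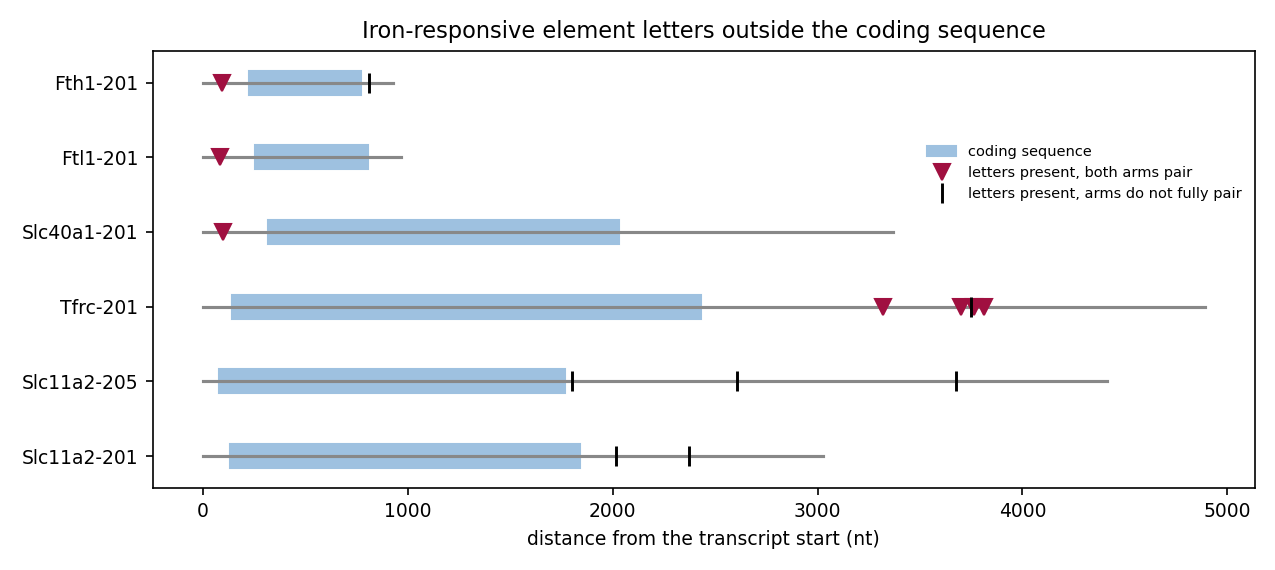
Position of iron-responsive element letters outside the coding sequence of 6 member transcripts, in nt from the transcript start; boxes are coding sequence, triangles are matches whose arms pair fully and bars are matches that do not. The single paired elements of Fth1-201, Ftl1-201 and Slc40a1-201 stand before the coding box, and the 4 of Tfrc-201 stand after it.

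Together the 10 genes held 4.03% of TPM in pup 1 and 3.51% in pup 2, or 3.77% ± 0.365 (SD, n = 2). TPM is a transcript level corrected for transcript length, with a fixed sum in each library, so levels of different genes can be set side by side. Transferrin made up most of this share, and without Trf the other members held 1.01% ± 0.0559. In the expected counts, which also weigh length, the share was 5.54% and 4.83%. Detection, a TPM no lower than 1 in each liver, held for 9 of the 10 genes, against 28.5% of all Ensembl genes and 52.9% of protein-coding genes. Hamp2 alone fell short. In whole tissue, fewer cells of a type and less RNA per cell cannot be told apart. Of the markers that define hepatocytes (Alb, Apoa1, Ahsg, Ttr, Serpina1e, Fgb and Rbp4), all 7 were detected, as were all 8 erythroid and all 7 Kupffer cell and macrophage markers.

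**Figure D2:**
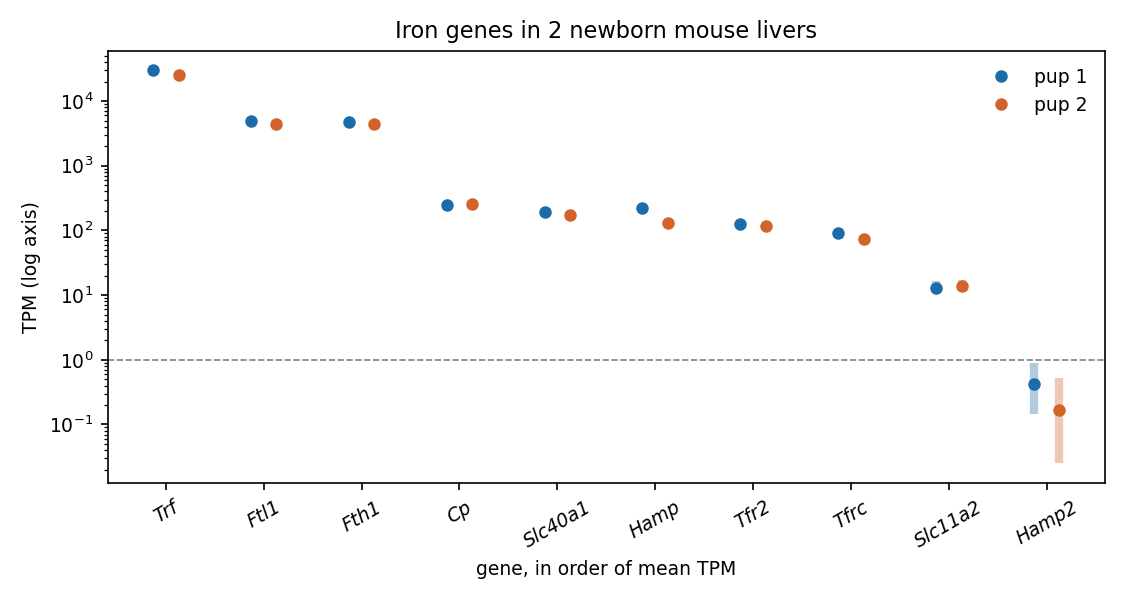
TPM of the 10 iron genes in each liver on a log axis, with the authors' credible bounds as shaded bars (hidden behind the points except for Hamp2) and a dashed line at 1 TPM. Levels run from Trf near 27602 TPM down to Hamp2 at 0.295 TPM, and the livers lie close together except for Hamp and Hamp2.

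Transferrin, the plasma carrier, stood far above the rest. Trf (ENSMUSG00000032554.11, chromosome 9, 103204001 to 103230444 in GRCm38) was at 29787 TPM in pup 1 and 25416 in pup 2, from 1977482 and 1668659 expected counts. It ranked 3 among all genes in pup 1 and 4 in pup 2. Its log2 ratio to the receptor gene Tfrc was 8.35 in pup 1 and 8.41 in pup 2, a mean of 8.38 ± 0.038 (SD, n = 2). A pair's ratio counted as larger than the spread if it had the same sign in each liver and its mean exceeded 3 SD, as here. The lower level of Trf in pup 2 left that ratio nearly the same, because Tfrc was lower there too.

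The transcript tables divided the Trf signal between a long and a short model. The full coding transcript Trf-201, of 2571 nt, held 70.4% ± 1.05 of the gene's TPM. A model of 433 nt annotated as retaining an intron, Trf-209, held 27.1% ± 1.05, from 93164 and 84503 expected counts. Of its bases, 423 lay in exons 15 to 17 of Trf-201 and 10 outside them, so nearly all of its reads could also come from Trf-201. Counting protein-coding transcripts alone, an alternative added after the data were seen, Trf stood at 21871 and 18299 TPM. The gene Gm20425, annotated on the same strand across the Trf locus, held 730 and 745 counts.

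The 2 transferrin receptors stood at similar levels. Tfr2 (chromosome 5, 137569840 to 137587481), the iron-sensing receptor of hepatocytes that is also made in red cell precursors, was at 126 TPM in pup 1 and 119 in pup 2. Tfrc (chromosome 16, 32608920 to 32632794), the receptor for cellular uptake, was at 90.2 and 74 TPM. The ranges of the 2 genes did not overlap, and the log2 ratio of Tfr2 to Tfrc was 0.58 ± 0.14, larger than the spread between the livers. Erythroid markers were present beside them, with a summed level of 36330 TPM in pup 1 and 38893 in pup 2, of which the globin Hbb-bs held most. How much of the Tfrc signal came from red cell precursors was not tested.

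Tfr2 had 1 transcript in the tables, and Tfrc had 6. Tfrc-201, the coding message with the 4 paired elements, held 56.3% ± 1.56 of the gene's TPM. Tfrc-204, a model of 3527 nt annotated as retaining an intron, held 35% ± 3.34, and 3201 of its bases lay in exons 15 to 19 of Tfrc-201. Tfrc-204 carried the same 4 elements, so 90% of Tfrc TPM in pup 1 and 92.5% in pup 2 was given to models that include them. Coding transcripts alone gave 57 and 44.7 TPM for Tfrc, which would place it further below Tfr2.

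The ferritin genes were abundant and nearly equal. Ftl1, the light chain that favours mineral formation (chromosome 7, 45457944 to 45459884), was at 4856 TPM in pup 1 and 4495 in pup 2. Fth1, the heavy chain with the ferroxidase site (chromosome 19, 9980598 to 9985098), was at 4763 and 4456 TPM. The ranges of the 2 genes over the livers overlapped. Within each liver Ftl1 was the higher by a small margin, with a log2 ratio of 0.028 in pup 1 and 0.012 in pup 2, and the mean of 0.020 ± 0.011 did not exceed 3 SD. By mean TPM Ftl1 ranked 23 and Fth1 25 among all genes. Fth1 had 1 transcript, whose M21 model carries the paired 5′ element, so its share of 100% was fixed in advance. Of the 5 Ftl1 transcripts only Ftl1-201 was in M21 and could be scanned. It carries the paired 5′ element and held 99.4% ± 0.0566 of the gene's TPM.

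Ferritin has copies elsewhere in the genome that can take reads from its genes. The 13 other rows whose symbols begin with Fth or Ftl held 2683 counts in pup 1 and 2561 in pup 2, or 0.949% and 0.968% of the family's counts. Almost all of these went to Ftl1-ps1, at 91.1 and 86.6 TPM. With these copies added, Ftl1 stood at 4765 ± 259 TPM and Fth1 at 4610 ± 217. Copies under other names were not searched for. The annotated microRNA gene Gm22133, on the same strand within Ftl1, held 1185 and 1197 counts, few against the 149929 and 139699 counts of Ftl1. Its TPM of 3332 and 3341 rested on an effective length of 10 nt and is no measure of its abundance.

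Ferroportin far exceeded the importer. Slc40a1 (chromosome 1, 45908068 to 45926523) was at 192 TPM in pup 1 and 172 in pup 2. Slc11a2 (chromosome 15, 100387898 to 100425072) was at 12.7 and 13.9 TPM, the lowest of the detected members. The log2 ratio of Slc40a1 to Slc11a2 was 3.68 ± 0.20, larger than the spread. That of Tfrc to Slc40a1 was -1.14 ± 0.085, so the exporter also stood above the main uptake receptor in both livers. Slc40a1-201, whose 5′ end carries the paired element, held 96% ± 1.03 of the gene's TPM. Kupffer cells and other macrophages, which recycle the iron of old red cells, also make ferroportin. The summed level of their 7 markers was 257 TPM in pup 1 and 242 in pup 2, and their part in the Slc40a1 level was not tested.

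Slc11a2 messages end in alternative ways, and only some carry an iron-responsive element. Slc11a2-205, with the near match printed above, was at 3.53 TPM in pup 1 and 3.23 in pup 2. Slc11a2-201, which ends elsewhere and has no match in its 3′ untranslated part with more than 3 of 5 arm positions able to pair, was at 7.92 and 7.36 TPM. The form without the near match was 2.24 times the other in pup 1 and 2.28 times in pup 2, a mean of 2.26 ± 0.0248. The remaining models were less steady. Slc11a2-204, of 393 nt and annotated as a target of nonsense-mediated decay, held 2.77 expected counts in pup 1 and 26.2 in pup 2, which made 2.09% and 17.9% of the gene's TPM. That short model also touched the comparison of the livers. By TPM Slc11a2 was 0.12 higher in pup 2 on the log2 scale, whereas its expected counts, 1390 and 1315, gave -0.022 with TMM factors, and the authors' bounds overlapped.

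**Figure D3:**
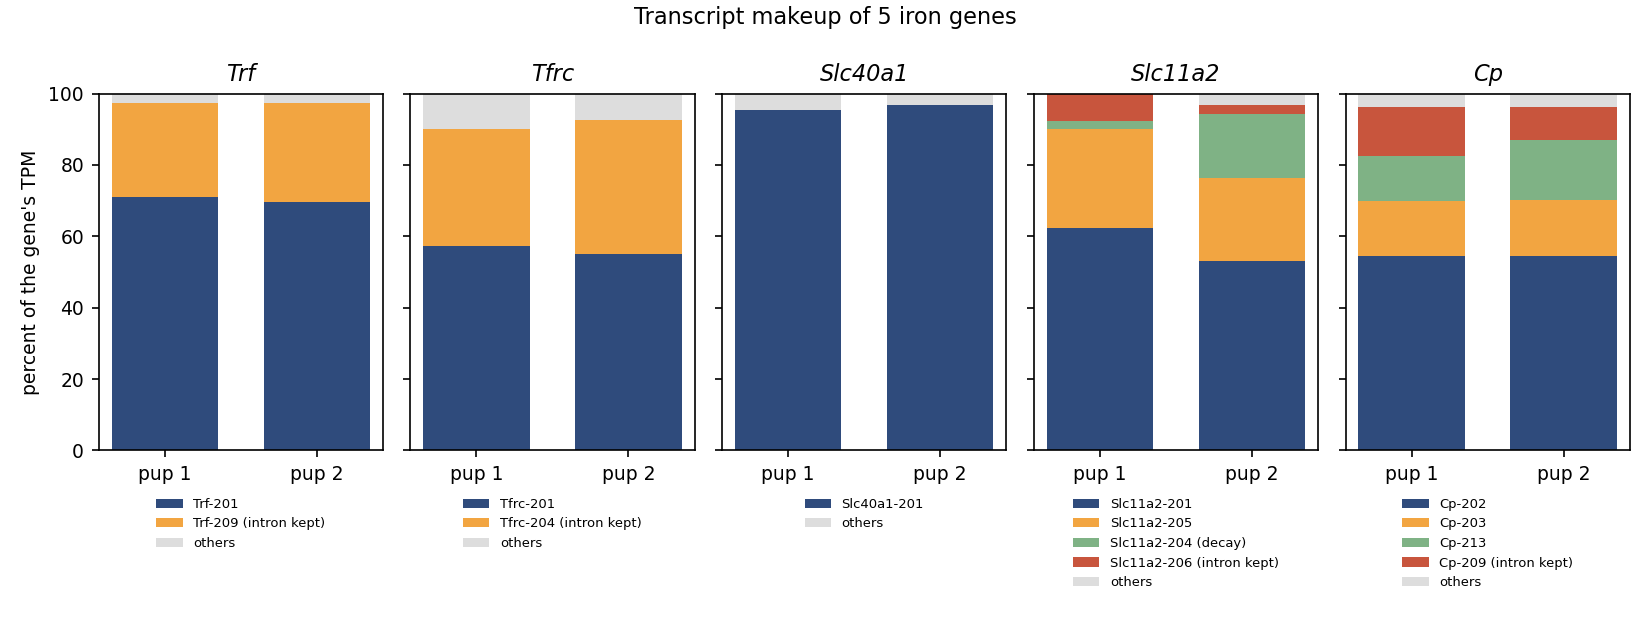
Percent of each gene's TPM given to its transcripts in pup 1 and pup 2, for the 5 members with several transcripts above 1 percent; "intron kept" and "decay" mark models annotated as retaining an intron or as decay targets, and grey sums the rest. The short Slc11a2-204 held 2.09% in pup 1 and 17.9% in pup 2, and the shares of Trf and Slc40a1 differed by under 2 points.

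Ceruloplasmin, the copper ferroxidase that loads iron onto transferrin, was the highest member after the ferritins. Cp (chromosome 3, 19957054 to 20009145) was at 246 TPM in pup 1 and 261 in pup 2. Hephaestin (Heph), the membrane ferroxidase of the gut, was at 0.8 and 0.75 TPM. The log2 ratio of Cp to Heph, 7.16 ± 0.089, was larger than the spread. Of 16 Cp transcripts, 4 held at least 5% of the gene's TPM in both livers. The coding message Cp-202 held 54.5% ± 0.0919 and Cp-203, a model that lies wholly in its exons, held 15.6% ± 0.269. Cp-213 held 14.7% ± 2.83 and the retained-intron model Cp-209 held 11.5% ± 3.10. The gene Hps3 overlaps Cp on the other strand and held 581 and 560 counts, few against the 26124 and 27450 of Cp.

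Hepcidin came almost entirely from 1 of its 2 genes. Hamp (ENSMUSG00000050440.7, chromosome 7, 30942368 to 30944032) was at 224 TPM in pup 1 and 129 in pup 2, from 2335 and 1354 counts. Its neighbour Hamp2 (chromosome 7, 30922372 to 30924681) was at 0.42 and 0.17 TPM, from 5 and 2 counts. The log2 ratio of Hamp to Hamp2 was 7.05 ± 0.36 on the scale of TPM + 1, which understates the gap. On plain TPM the ratio was 533 in pup 1 and 759 in pup 2, values that rest on the 5 and 2 counts of Hamp2. Both genes had a single transcript in the tables and whole numbers of counts, so the counts show no read divided between them. Whether reads from stretches that the 2 genes share were given to the right gene was not tested.

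The coding ends of the hepcidin genes are printed because the mature hormone is encoded there and the copies differ there. Over the whole coding sequence of 252 bases the genes differed at 16 positions, an identity of 93.7%. Of these 16, 14 lay in the last 78 bases, where identity was 82.1%. The longest identical run in the aligned coding sequences was 80 bases. Capitals below mark the bases that differ between the genes, and each sequence ends with its stop codon.
Hamp, chr7:30942477-30942554, minus strand: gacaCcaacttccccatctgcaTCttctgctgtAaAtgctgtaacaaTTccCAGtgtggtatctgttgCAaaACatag
Hamp2, chr7:30922508-30922585, minus strand: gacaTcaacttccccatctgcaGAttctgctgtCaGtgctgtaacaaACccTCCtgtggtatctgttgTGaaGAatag

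In order of mean TPM the genes ran Trf, Ftl1, Fth1, Cp, Slc40a1, Hamp, Tfr2, Tfrc, Slc11a2 and Hamp2. The steps from Trf to Ftl1, from Fth1 to Cp, from Tfr2 to Tfrc, from Tfrc to Slc11a2 and from Slc11a2 to Hamp2 were larger than the spread. Those from Ftl1 to Fth1 and from Slc40a1 to Hamp were not, and their ranges overlapped. Those from Cp to Slc40a1, with a log2 ratio of 0.47 ± 0.18, and from Hamp to Tfr2, with 0.47 ± 0.50, were in the same direction in both livers but did not reach 3 SD. Hamp lay above Slc40a1 in pup 1 and below it in pup 2, so its place in the order depended on the liver. Of the 8 gene pairs that were compared, 7 had a ratio larger than the spread. The share of all gene pairs that would pass this rule was not computed, so the count is description only.

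Among the 9 members averaging at least 1 TPM, Hamp differed most between the littermates. Its TPM in pup 1 was 1.74 times that in pup 2, a log2 difference of -0.79 for pup 2 over pup 1. Scaled by library totals, its counts were 1.70 times as high in pup 1, with an exact 95% binomial interval of 1.59 to 1.82 that covers counting error only. The difference did not reach 2-fold. It compares 2 animals with 1 library each and has no replicate check. Among the 1076 genes averaging at least 100 TPM, 9 (0.836%) showed a 1.5-fold or larger gap with the authors' credible bounds apart, a threshold chosen after the values were seen. Of these 9, 4 (0.372%) were lower in pup 2, Hamp among them.

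Signals of other tissues differed between the livers at the same time. The summed TPM of 7 muscle markers was 51.2 in pup 1 and 773 in pup 2, and that of 7 pancreas markers 2.33 and 106. All 7 of each list were at least 2-fold higher in pup 2, where 72 of 12711 genes (0.566%) were. Both lists were chosen with earlier results of these data known, so these counts are description only. The summed hepatocyte markers stood at 78249 TPM in pup 1 and 76020 in pup 2, 0.972 times as high. Of the 7 single markers, 3 were higher and 4 lower in pup 2. The part of hepatocyte content and of the muscle and pancreas signals in the Hamp difference was not tested.

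The other 8 members at this level differed by less. None of the 9 was 2-fold apart with bounds apart, where 80 of 12711 genes (0.629%) were, 72 (0.566%) of them higher and 8 (0.0629%) lower in pup 2. Their log2 differences ran from -0.79 for Hamp to 0.12 for Slc11a2, with a median of -0.11. The median was -0.051 over all genes tested and -0.0087 over the 1076 genes averaging at least 100 TPM. Tfrc differed by -0.28, Trf by -0.23, Slc40a1 by -0.16, Ftl1 by -0.11, Fth1 by -0.096 and Tfr2 by -0.081, all lower in pup 2, and Cp by 0.086, higher in pup 2. The authors' bounds did not overlap for 8 of the 9 members, 7 lower and 1 higher in pup 2. Over all genes tested this held for 20.1%, of which 13.8% lower and 6.27% higher. Bounds are narrow in abundant genes, and among genes averaging at least 100 TPM, which include 7 of the members, they were apart for 44.3%. They were apart for all 7 of those members. The split by direction was not counted at that level. Hamp2, below 1 TPM, had a count ratio of 2.46 between pup 1 and pup 2 with an exact 95% binomial interval of 0.403 to 25.8, so no difference was detectable at its depth.

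**Figure D4:**
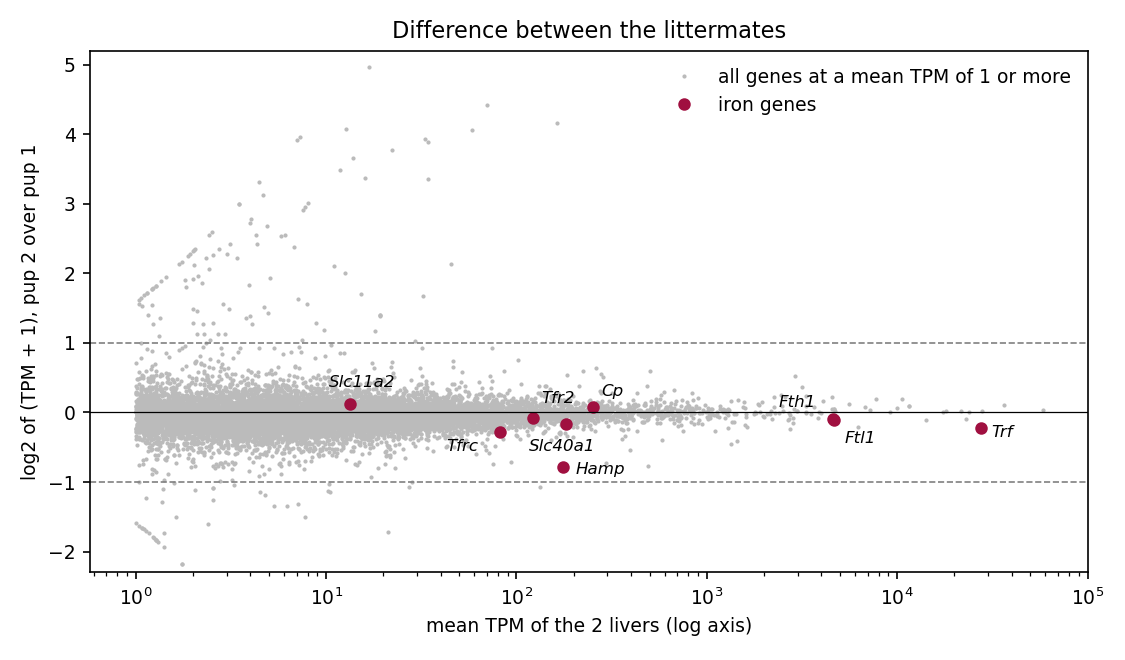
Log2 of TPM + 1, pup 2 over pup 1, against mean TPM (log axis) for genes averaging at least 1 TPM in grey and the 9 iron genes above that level in colour; dashed lines mark 2-fold. Hamp at -0.79 lies below the band of genes of its level, and the other members lie within 0.3 of 0.

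By median TPM, the list of genes that control hepcidin stood lowest of the pathway lists described here. Of 22 measured genes of this list, 18 were detected, with a median of 4.54 ± 0.0354 TPM. The highest were Tmprss6, the protease that restrains hepcidin (68.6 and 62.8 TPM), Stat3, the carrier of inflammatory signals to the Hamp promoter (46.8 and 38.6 TPM), and the BMP target gene Id1 (34.9 and 35.2 TPM). Bmp6, the ligand that reports liver iron, had 20 and 22 counts and stood at 0.24 and 0.27 TPM. The receptor Neo1 (0.84 and 0.98 TPM), the transcription factor gene Atoh8 (0.81 and 1.05 TPM) and Erfe, the hormone by which red cell precursors lower hepcidin (1.08 and 0.82 TPM), also fell short of 1 TPM in at least 1 liver. No gene of the list was at least 2-fold apart, where 0.629% of all genes tested were. At the 1.5-fold threshold chosen after the values were seen, 1 gene was apart, as were 1.47% of all genes tested. It was Cebpa, at 16.4 TPM in pup 1 and 27.8 in pup 2. Of its 18 genes averaging at least 1 TPM, 9 were higher and 9 lower in pup 2. The authors' bounds were apart for 4 of the higher and 3 of the lower ones. Over all 12711 genes tested they were apart for 20.1%, of which 6.27% higher and 13.8% lower.

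Genes that bring iron into cells and pass it on were detected in 11 of 14 cases, with a median of 15.3 ± 1.55 TPM. They were led by the iron chaperone Pcbp1 (181 TPM in each liver), the mitochondrial iron importer Slc25a37 (118 and 110 TPM), which serves heme synthesis in red cell precursors, and the ferritin receptor of autophagy Ncoa4 (120 and 106 TPM). The gut reductase Cybrd1 (0.19 and 0.18 TPM) and the ferritin receptor Scara5 (0.09 and 0.1 TPM) were not detected, and Steap1 stood at 1.64 and 0.96 TPM. All 5 genes of iron regulatory proteins and their turnover were detected. Skp1a (254 and 258 TPM) and Cul1 (38.8 and 35.7 TPM), subunits of a general ubiquitin ligase, were the highest. Of the proteins that bind the hairpins, Aco1 (36.1 and 34.9 TPM) stood above Ireb2 (6.24 and 5.5 TPM), with a log2 ratio of Ireb2 to Aco1 of -2.41 ± 0.076 that was larger than the spread.

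Among ferroxidases and other carriers of iron or heme, 9 of 13 genes were detected. The hemoglobin scavenger haptoglobin (Hp, 3576 and 3509 TPM) and the heme scavenger hemopexin (Hpx, 1784 and 1934 TPM) led the list, followed by the siderophore binder Lcn2 (368 and 358 TPM). Besides Heph, the hemoglobin scavenger receptor gene Cd163 (0.66 and 0.67 TPM) was below 1 TPM, Hephl1 had 0 and 3 counts, and mitochondrial ferritin (Ftmt) had 0 counts in both livers, which allows up to 0.0712 and 0.0724 CPM, counts scaled to library size. All 9 genes of iron-sulfur cluster assembly were detected, led by Glrx5 (348 and 344 TPM), the chaperone Hspa9 (224 and 194 TPM) and the scaffold Iscu (95.3 and 95 TPM). No gene of these 4 lists was at least 2-fold apart between the livers, where 80 of 12711 genes (0.629%) were.

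**Figure D5:**
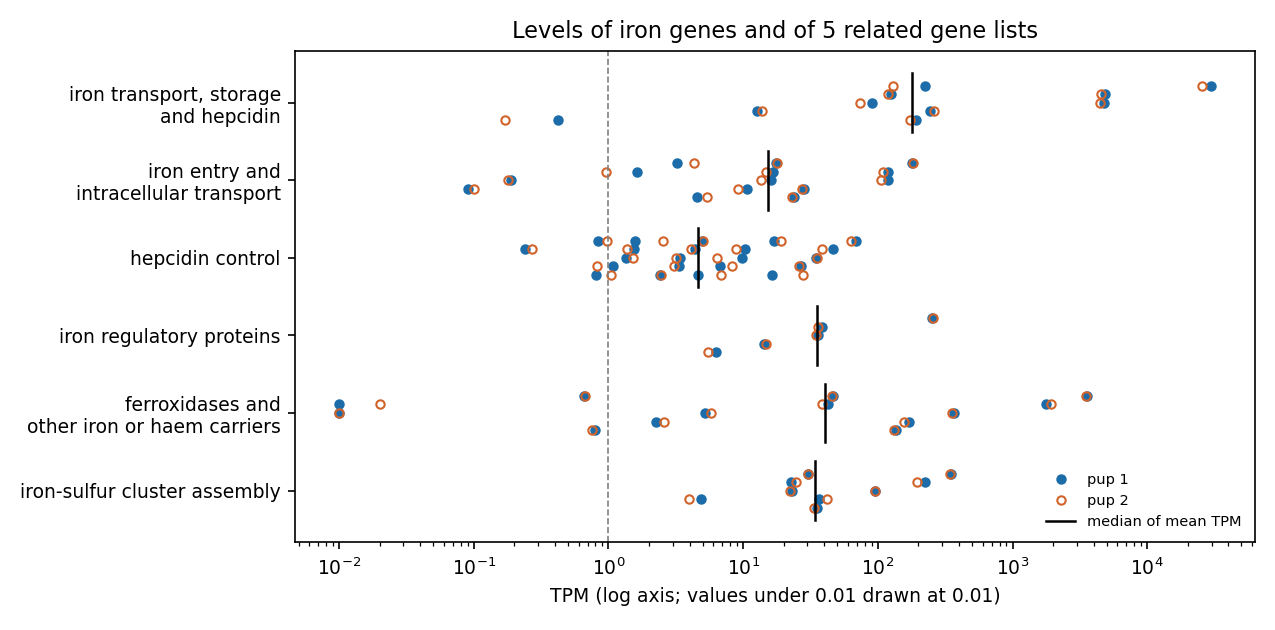
TPM in pup 1 (filled) and pup 2 (open) of the iron genes and of 5 related lists on a log axis. The black line is the median of the mean TPM of each list's genes, and the dashed line marks 1 TPM. The iron genes reach the highest levels, and the hepcidin control list has the lowest median. The 4.54 TPM given for it in the text is the mean of the medians in the 2 livers.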

How the data were processed

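The authors deposited 1 gene table and 1 transcript table per liver in the layout of RSEM. Per the deposited notes the assembly was mm10 and the annotation GENCODE M4. Aligner, counter and strand setting: not given in the sources used here. The labels name total RNA-seq as the assay but cite the manual of a low-input kit that primes on poly(A), so the priming is uncertain. The authors' expected counts are estimated reads, with shared reads divided. TPM was deposited by the authors per effective length, and FPKM was deposited by the authors and used only as an alternative. The percent of a gene's TPM per transcript was deposited by the authors. The authors' credible bounds of TPM (a signal column here, level not stated) belong to a posterior mean estimate. For 3 members (Trf, Fth1 and Ftl1) TPM lay outside them.

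Symbols and coordinates came from GENCODE M21 (GRCm38), which matched 42462 Ensembl rows and left 884 unmatched. Transcript sequences were also M21. Its models of Fth1-201, Hamp-201 and Hamp2-201 have 929, 410 and 420 nt, against 866, 392 and 437 nt in the tables.

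The members and lists were chosen with earlier results of these data known. The text names all members and, per pathway list, the 3 highest genes, those not detected and those at least 2-fold apart. Cebpa was named in addition, for a difference of at least 1.5-fold. With 2 livers no exact test can pass 0.05, so no p-value is given, and no genes were named for likeness of pattern. Differences used log2(TPM + 1), which understates changes of low genes; a gene counted as 2-fold apart when it averaged at least 1 TPM and the bounds did not overlap. A count of 0 allows up to 3 counts. Marker lists are given as sums. Intervals and floors cover counting error only. Alternatives were posterior mean TPM, rescaled FPKM, other pseudocounts and filters, edgeR 4.0.16 TMM and median-of-ratios scaling of expected counts, and each liver alone. Python 3.11.15, pandas 2.3.3, numpy 2.4.6, scipy 1.17.1, matplotlib 3.10.9 and R 4.3.3 were used.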

Additional observations from a re-analysis of the deposited data

How the results depend on the processing

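The share of TPM held by the 10 genes, 3.77%, became 4.81% without globin, mitochondrial and 7SL genes in the total, 5.19% of expected counts, and 3.01% with protein-coding transcripts only, because these alternatives change what is summed. Without 1 liver it ran from 3.51% to 4.03%. The count of 9 detected genes was the same under every alternative run. Of the members' directions between the livers, only that of Slc11a2 changed. It went from 0.12 by TPM to -0.022 with TMM factors and -0.032 with median-of-ratios factors. Hamp stayed between -0.71 and -0.80. Sizes changed more widely. With TMM factors Tfrc was at -0.22, Trf at -0.19, Slc40a1 at -0.081, Ftl1 at -0.044, Fth1 at -0.029 and Tfr2 at -0.014. These were all smaller differences than by TPM, whereas Cp, at 0.13, was larger. The median over all genes tested went from -0.051 to 0.0044. No member was at least 2-fold apart under any alternative, and 1, Hamp, was at least 1.5-fold apart. Over all genes, the 80 at least 2-fold apart (72 higher and 8 lower in pup 2) became 36 (30 higher) at a mean TPM of at least 5, 159 (55 lower) with no condition on the bounds, and 187 (127 higher, 60 lower) at 1.5-fold. The share of higher genes, 90%, was 65.4% and 67.9% in the latter 2 settings. The 8 lower genes became 19 with a pseudocount of 0.1 and 4 with TMM or median-of-ratios factors. The cause of these shifts in the lower genes was not tested. No paired analysis was possible because the livers form 1 group. Depth limits Hamp2, which had 5 and 2 counts, and the short Slc11a2 models.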
